A study of Mus musculus with 3 samples.

Results

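The 10 genes described here encode cadherins, catenins and desmoplakin, the proteins of the adherens junction and the desmosome. They were taken by symbol (Cdh1, Cdh2, Cdh3, Cdh11, Cdh13, Ctnnb1, Ctnna1, Ctnnd1, Jup and Dsp) from a table of 18245 genes, and all 10 were present. Messenger RNA was sequenced in 3 kinds of cultured C57BL/6 mouse cell from the epicardium, the outer cell layer of the heart, with 3 libraries of each kind. CDC are cardiosphere-derived cells, adherent cells that grow out of epicardial explants by way of floating spheres and look mesenchymal. CDC-EpiC is epithelial clone 1, which formed within 2 weeks after CDC received SB-431542 at 10 µM and was isolated in a cloning cylinder, so it stands for a single clone. SB-431542 blocks the kinase activity of type I receptors for TGF-beta. pEpiC are primary epicardial cells, which have an epithelial shape in culture. By the study's methods, pEpiC were released from dissected hearts with collagenase and trypsin, whereas CDC came from peeled ventricle epicardium. The culture media of pEpiC and CDC also differed, so isolation and medium cannot be told apart from kind when these are compared. The comparisons ask how far the junction genes of the mesenchymal cells, of the epithelial clone drawn from them and of the primary cells differ. The study's methods speak of biological replicates, a pair per condition, whereas the table holds 3 libraries of each kind, and whether these came from separate animals or cultures is not given in the sources used here. The p-values therefore measure only the spread between these libraries, which may be technical.

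Cadherins are membrane proteins that bind a cadherin on the next cell through calcium-dependent extracellular repeats. Inside the cell a classical cadherin binds beta-catenin (Ctnnb1) or plakoglobin (Jup) and p120-catenin (Ctnnd1), and alpha-catenin (Ctnna1) joins this complex to actin. In desmosomes, plakoglobin and plakophilins join desmogleins and desmocollins to desmoplakin (Dsp), which holds intermediate filaments. An exchange of E-cadherin (Cdh1) for N-cadherin (Cdh2) is a textbook mark of the passage from epithelium to mesenchyme, although mesothelial layers such as the epicardium are known to carry N-cadherin.

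Total expected counts were 22008833 to 22756045 per library, and the libraries of a kind differed by more than read sampling (chi-square over degrees of freedom 4.89 to 23.0). Of 10 epicardial and mesothelial markers, none was at or below 3 counts throughout a kind, and their summed level was 681 to 713 CPM (counts scaled to library size with TMM factors) in CDC, 5800 to 6774 in CDC-EpiC and 536 to 577 in pEpiC. Upk3b, Lrrn4 and Upk1b carried the sum of the clone (means of 2664, 2129 and 1165 CPM). In pEpiC 5 of the 10 were higher and 5 lower than in CDC (39.8% and 38.5% of all genes). Of 8 tested in the clone, 6 were higher and 2 (Tbx18 and Krt19) lower than in CDC (34.2% and 34.6% of all genes). Krt8 and Krt18 were not tested there, with at most 9 counts in any CDC or clone library. They passed the filter on low counts through pEpiC alone, where they were higher than in both other kinds. Against pEpiC, 7 of the 10 were higher in the clone and 3 (Tcf21, Krt8 and Krt18) lower (40.3% and 41.5% of all genes). Of 8 general epithelial markers, 5 were at or below 3 counts in every CDC library, 6 in CDC-EpiC and 7 in pEpiC, among them Epcam and Grhl2 in all 9 libraries, and their sums were at most 1.95 CPM. Fibroblast and mesenchymal markers summed to 14983 to 18040 CPM in CDC, 9470 to 10769 in CDC-EpiC and 32612 to 35475 in pEpiC. The collagens Col1a1, Col1a2 and Col3a1 carried the pEpiC sum, and of the 8 genes 5 were higher and 3 (Thy1, Vim and S100a4) lower in pEpiC than in CDC. Macrophage markers summed to 57.9 to 60.9, 22.6 to 25.1 and 311 to 891 CPM in the same order, the highest value being pEpiC library 1. Of these 10 genes, 5 were at or below 3 counts in every CDC library and 7 in the clone, Ptprc, Adgre1 and Mrc1 in both. Lyz2 (37.7 CPM) and Csf1r (19.6) made up most of the CDC sum, and Cd68 (13.3) and Csf1r (9.41) most of the clone's. Cardiomyocyte markers summed to 9.69 to 29.1, 10.2 to 12.8 and 137 to 154 CPM. In pEpiC this was almost all Tnnt2 (144 CPM), with 5 of the 10 genes at or below 3 counts, among them Myh6, Myh7 and Myl2. The CDC libraries held Myh6 at 191, 190 and 0 counts, against at most 1 elsewhere. Endothelial markers summed to 6.64 to 7.71, 8.05 to 9.71 and 20.1 to 24.1 CPM, of which Tek made up 17.5 in pEpiC while Pecam1, Cldn5, Tie1 and Emcn had means of at most 0.348 in any kind, and neural and Schwann cell markers to 132 to 178, 51.1 to 53.5 and 115 to 119 CPM. Lung and liver epithelial markers summed to 1.23 to 43.6, 3.72 to 4.78 and 0.129 to 0.477 CPM, and albumin (Alb) had 660, 599 and 1 counts in the CDC libraries and 0 in the others. In bulk RNA, fewer cells of a type and less RNA per cell cannot be told apart.

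Among the 5 member cadherins, Cdh2 made up most of the mRNA of CDC, pEpiC added a high level of Cdh11 and almost no Cdh1, and the clone held the lowest Cdh2. The clone also had the highest Jup and Cdh1, although the difference of Cdh1 from CDC did not pass without CDC libraries 1 and 2 (adjusted p = 0.239, edgeR). Between pEpiC and CDC, 8 of the 9 members that could be tested passed edgeR's quasi-likelihood test at an adjusted p of 0.05, beside 78.3% of all genes tested. In that comparison 3 members (Cdh11, Jup and Ctnnb1) were higher in pEpiC, beside 39.8% of all genes, and 5 (Cdh1, Cdh2, Cdh3, Cdh13 and Ctnnd1) were lower, beside 38.5%. Between CDC-EpiC and CDC, 5 of 9 members passed, beside 68.8% of all genes: Cdh1 and Jup were higher in the clone (background 34.2%) and Cdh2, Cdh3 and Ctnna1 were lower (background 34.6%). Between CDC-EpiC and pEpiC, 8 of 9 passed, beside 81.9% of all genes, with Cdh1, Cdh13, Ctnnd1 and Jup higher in the clone (background 40.3%) and Cdh2, Cdh11, Ctnnb1 and Ctnna1 lower (background 41.5%). These shares lie near the backgrounds and set the members apart from other genes in no comparison. The first pair of comparisons shares the CDC libraries, and each shares a kind with the third. Dsp had too few counts to be tested.

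**Figure D1:**
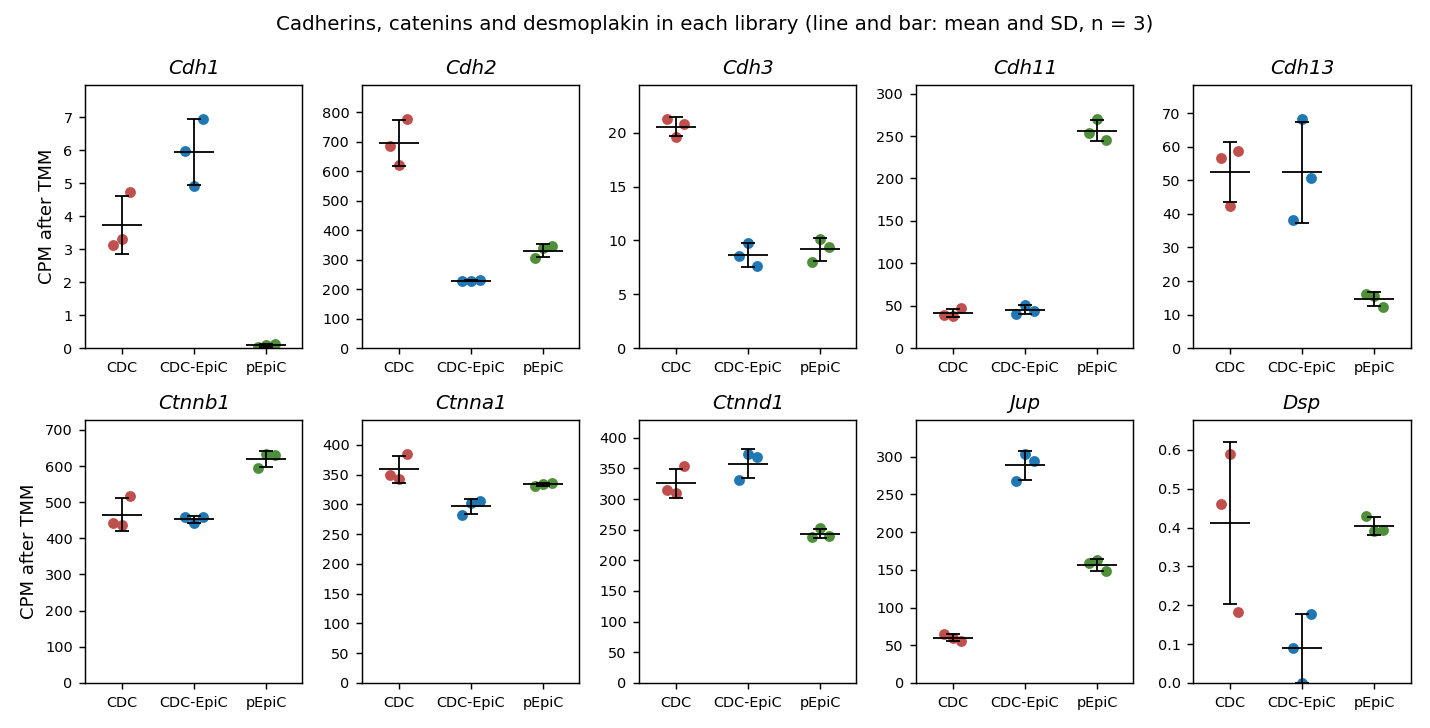
CPM of each of the 10 genes (vertical axes, from 0) in the 3 libraries of CDC, CDC-EpiC and pEpiC (points), with the mean and SD of each kind (n = 3). Jup lies lowest in CDC (55.9 to 64.6 CPM) and highest in CDC-EpiC (267 to 304), Cdh11 stands out in pEpiC (246 to 270), and Cdh1 is at most 0.131 CPM there.

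Cdh2, N-cadherin (gene 12558, GRCm38 chr18:16588877-16809246, minus strand), was the most abundant of the member cadherins in every library. Its level was 685, 622 and 776 CPM in the CDC libraries, 226, 228 and 232 in CDC-EpiC, and 307, 340 and 346 in pEpiC. The 3 kinds did not overlap, in the order CDC, pEpiC, CDC-EpiC. Compared with CDC, Cdh2 changed by -1.61 ± 0.0899 (log2, SE) in the clone (adjusted p = 4.28e-10) and by -1.11 ± 0.0848 in pEpiC (adjusted p = 1e-06), both in edgeR. Without CDC libraries 1 and 2, which held heart and liver transcripts, the changes from CDC were -1.77 ± 0.0898 and -1.27 ± 0.0743, with the lone CDC library assumed to vary like those of the other kind. Against pEpiC the clone was lower by -0.54 ± 0.0555 (adjusted p = 7.73e-06, edgeR). By mean TPM, which is scaled to transcript length, Cdh2 ranked 587 of 18244 gene symbols in CDC, 1029 in pEpiC and 1852 in CDC-EpiC.

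Cdh1, E-cadherin (gene 12550, chr8:106603350-106670247, plus strand), was a low-count gene everywhere. The CDC libraries held 68, 73 and 104 counts, the CDC-EpiC libraries 135, 108 and 156, and the pEpiC libraries 1, 2 and 3. The clone and CDC did not overlap, but the highest CDC library (4.73 CPM) lay close to the lowest of the clone (4.92 CPM). The summed counts of CDC were 43.0 times those of pEpiC after scaling (95% exact counting interval 19.5 to 118), and those of CDC-EpiC were 68.7 times (31.3 to 188), intervals that cover counting error alone. In edgeR, Cdh1 was lower in pEpiC than in CDC (adjusted p = 3.94e-07) and higher in the clone than in pEpiC (adjusted p = 5.2e-08). Between the clone and CDC the change was 0.67 ± 0.184 (log2, SE, adjusted p = 0.00471), a 1.60-fold difference between means of 5.95 ± 1.01 and 3.73 ± 0.877 CPM (SD, n = 3). Without CDC libraries 1 and 2, the pair with albumin and Myh6 counts, this difference was 0.33 ± 0.229 and did not pass (adjusted p = 0.239), with the lone CDC library assumed to vary like the clone's. The part of the liver and heart transcripts in the Cdh1 level of CDC was not tested. By TPM, Cdh1 was at 1.48 in CDC, 2.47 in CDC-EpiC and 0.0467 in pEpiC, and its ranks among the symbols were 11268, 10567 and 15849.

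Cdh3, P-cadherin (gene 12560, chr8:106510852-106556911, plus strand), lies upstream of Cdh1 on the same strand and is a classical cadherin of basal epithelial layers. Its level was 21.2, 19.6 and 20.8 CPM in CDC, 8.51, 9.80 and 7.60 in CDC-EpiC, and 7.97, 10.1 and 9.39 in pEpiC. CDC lay above both other kinds, which overlapped. The change from CDC was -1.26 ± 0.104 (log2, SE) in the clone (adjusted p = 4.06e-08) and -1.20 ± 0.0979 in pEpiC (adjusted p = 1.51e-06). The clone and pEpiC differed by -0.10 ± 0.130 (adjusted p = 0.493, all in edgeR). On the TPM scale that last difference was -0.40 and passed (adjusted p = 0.00765, limma), and with a correction for transcript length it was 0.09.

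Cdh11, also called OB-cadherin, is a type II classical cadherin known from mesenchymal and bone-forming cells (gene 12552, chr8:102632095-102785493, minus strand). It stood at 39.5, 37.8 and 47.0 CPM in CDC, 40.5, 50.9 and 43.6 in CDC-EpiC and 254, 270 and 246 in pEpiC. CDC and the clone overlapped, and every pEpiC library was above both. pEpiC exceeded CDC by 2.60 ± 0.0847 (log2, SE, adjusted p = 3.37e-09), a 6.19-fold difference, and the clone was lower than pEpiC by -2.53 ± 0.0806 (adjusted p = 1.87e-09). The clone and CDC differed by 0.11 ± 0.0988 (adjusted p = 0.329, all in edgeR), which turned to -0.07 without CDC libraries 1 and 2. The macrophage gene Lyz2 had 10174, 4453 and 3761 counts in the pEpiC libraries, and leaving out pEpiC library 1 changed no call of any member. The sum of the fibroblast and mesenchymal markers was also higher in every pEpiC library than in the other kinds, with 5 of 8 genes higher and 3 lower than in CDC and 5 higher and 2 lower than in the clone. The part of macrophage and mesenchymal transcripts in the difference of Cdh11 was not tested.

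Cdh13, T-cadherin, has no transmembrane or cytoplasmic part and is held by a lipid anchor, so it binds no catenin (gene 12554, chr8:118140017-119324929, plus strand). Its libraries spread widely, with 56.6, 42.3 and 58.8 CPM in CDC, 38.3, 68.2 and 50.6 in CDC-EpiC, and 16.0, 15.5 and 12.3 in pEpiC. CDC and the clone overlapped throughout, and pEpiC lay below both. The change in pEpiC from CDC was -1.88 ± 0.134 (log2, SE, adjusted p = 5.79e-07), and the clone exceeded pEpiC by 1.83 ± 0.191 (adjusted p = 9.16e-06). The clone and CDC differed by -0.015 ± 0.161 (adjusted p = 0.939, all in edgeR), a value whose sign turned with the scaling and with the library left out.

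Set side by side per length, the 5 member cadherins made up different mixtures. Their summed TPM was 300 ± 44.5 in CDC, 135 ± 8.47 in CDC-EpiC and 302 ± 17.1 in pEpiC (mean ± SD, n = 3). The near-equal sums of CDC and pEpiC depend on the unit. On the log2(TPM + 1) scale the median of all genes moved to 0.41 for pEpiC against CDC. Cdh2 took 83.6% ± 0.519 of the summed TPM in CDC, 64.4% ± 4.39 in the clone and 54.5% ± 2.11 in pEpiC. Cdh11 took 4.83% ± 0.189, 12.03% ± 0.599 and 40.6% ± 1.72 in the same order, so that Cdh2 exceeded Cdh11 by 17.3 ± 0.588, 5.37 ± 0.597 and 1.35 ± 0.111 times. Cdh13 took 8.11% ± 0.779, 18.8% ± 4.15 and 3.07% ± 0.478. The classical pair of E-cadherin to N-cadherin stood at a ratio of 0.00584 ± 0.000828 in CDC, 0.0284 ± 0.00452 in CDC-EpiC and 0.000278 ± 0.000139 in pEpiC (0.000888 with a pseudocount of 0.1 TPM), so Cdh2 exceeded Cdh1 in all 9 libraries, the epithelial clone included. Of 24 comparisons of shares and ratios between kinds, 23 had no overlap and reached an exact two-sided permutation p of 0.1 (0.104 after Benjamini-Hochberg adjustment), the smallest that 3 against 3 libraries can give. The exception was the share of Cdh3 in the clone and CDC (2.91% ± 0.294 and 3.00% ± 0.262, exact p = 0.5).

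**Figure D2:**
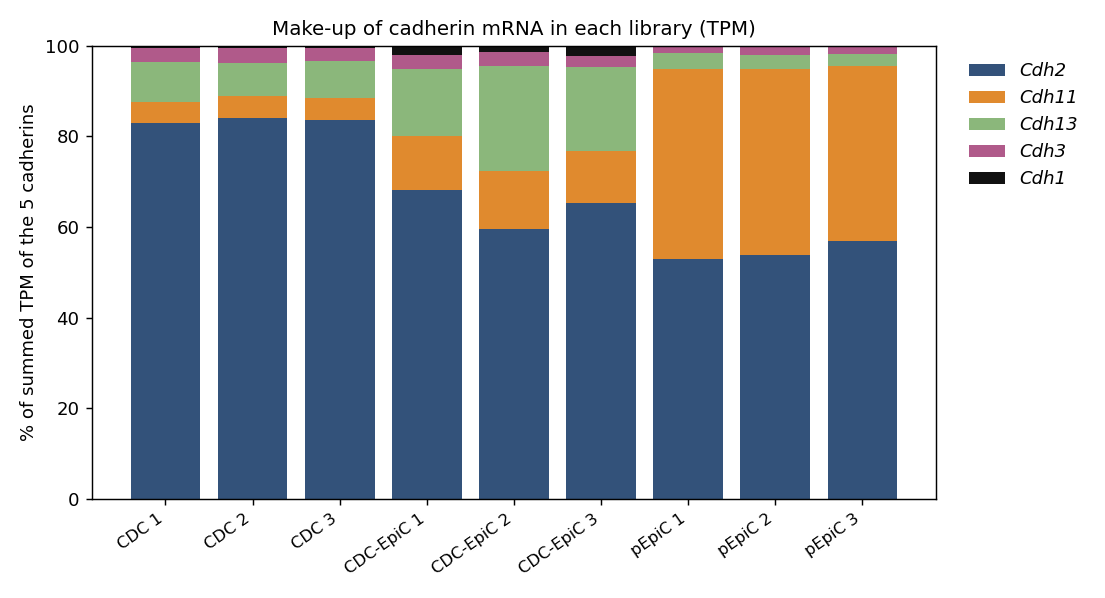
Share (% of summed TPM, vertical axis) of Cdh2, Cdh11, Cdh13, Cdh3 and Cdh1 in each of the 9 libraries (bars). Cdh2 takes 83.0% to 84.1% in CDC, 59.6% to 68.3% in CDC-EpiC and 52.9% to 56.9% in pEpiC, where Cdh11 takes 38.7% to 42.0%.

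Jup, plakoglobin or gamma-catenin, is the catenin that serves both adherens junctions and desmosomes (gene 16480, chr11:100368856-100397839, minus strand). It stood at 64.6, 59.0 and 55.9 CPM in CDC, 267, 304 and 294 in CDC-EpiC and 158, 163 and 148 in pEpiC. The kinds did not overlap, in the order CDC-EpiC, pEpiC, CDC. The clone exceeded CDC by 2.26 ± 0.0857 (log2, SE, adjusted p = 4.77e-12), or 4.82-fold, and pEpiC exceeded CDC by 1.35 ± 0.0728 (adjusted p = 8.76e-08), or 2.62-fold. The clone exceeded pEpiC by 0.87 ± 0.0612 (adjusted p = 4.8e-07, all in edgeR). By mean TPM it ranked 4155 of 18244 symbols in CDC, 1563 in pEpiC and 1001 in the clone.

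Ctnnb1, beta-catenin, is the closest relative of plakoglobin and also the transcriptional partner of the Wnt pathway (gene 12387, chr9:120933400-120960507, plus strand). It was abundant in all libraries, with 442, 437 and 518 CPM in CDC, 460, 442 and 458 in CDC-EpiC and 595, 633 and 629 in pEpiC. CDC and the clone overlapped, and pEpiC lay above both. pEpiC exceeded CDC by 0.38 ± 0.0741 (log2, SE, adjusted p = 0.000924) and the clone was lower than pEpiC by -0.46 ± 0.0514 (adjusted p = 1.44e-05). The clone and CDC differed by -0.048 ± 0.0847 (adjusted p = 0.633, all in edgeR), with a sign that turned on the TPM and FPKM scales, with library totals alone and without CDC library 3. The ratio of Jup to Ctnnb1 in TPM was 0.138 ± 0.0209 in CDC, 0.268 ± 0.0168 in pEpiC and 0.679 ± 0.0581 in CDC-EpiC (exact p = 0.1 for each pair, adjusted 0.104), so Ctnnb1 remained the more abundant in every library.

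Ctnna1, alpha-catenin, joins the complex to actin (gene 12385, chr18:35118902-35254776, plus strand). The highest and lowest kinds differed 1.21-fold, the narrowest range of the tested members. Its level was 350, 342 and 385 CPM in CDC, 283, 302 and 305 in CDC-EpiC and 331, 335 and 335 in pEpiC. The clone was lower than CDC by -0.28 ± 0.0784 (log2, SE, adjusted p = 0.00479) and lower than pEpiC by -0.19 ± 0.0481 (adjusted p = 0.00493), and the latter was -0.057 and did not pass with a correction for transcript length (adjusted p = 0.270). Between pEpiC and CDC it was -0.14 ± 0.0614 (adjusted p = 0.0595, all in edgeR), while it passed as lower in DESeq2 (adjusted p = 0.0394), without CDC library 2 (adjusted p = 0.0344), without CDC libraries 1 and 2 (adjusted p = 0.00603) and with the correction for transcript length (-0.27, adjusted p = 0.000672). On the TPM scale its sign turned to 0.36 (adjusted p = 0.00133, limma).

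Ctnnd1, p120-catenin, binds the membrane-near part of classical cadherins and holds them at the surface (gene 12388, chr2:84587096-84658977, minus strand). It stood at 315, 310 and 353 CPM in CDC, 331, 374 and 369 in CDC-EpiC and 239, 253 and 240 in pEpiC. CDC and the clone overlapped, and pEpiC lay below both. The change in pEpiC from CDC was -0.46 ± 0.0657 (log2, SE, adjusted p = 0.000101, edgeR), but 0.045 on the TPM scale (adjusted p = 0.618, limma). The clone exceeded pEpiC by 0.54 ± 0.0575 (adjusted p = 1.05e-05, edgeR). The clone and CDC differed by 0.13 ± 0.0830 (adjusted p = 0.191, edgeR). This difference passed without CDC library 3 (adjusted p = 0.0487, edgeR), with library totals alone (adjusted p = 0.0486, edgeR) and on the FPKM scale (adjusted p = 0.0386, limma). In the GENCODE annotation 4482 of its 7319 exonic bases are shared with the predicted gene Gm28635 on the same strand, so its counts are uncertain. Exons of Ulk4 and a microRNA cover 782 of 5192 exonic bases of Ctnnb1, and exons of Lrrtm2 cover 95 of 6425 of Ctnna1. Gm10129, on the opposite strand, covers 499 of 9659 exonic bases of Dsp, a member with few counts.

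Comparisons with pEpiC depended on scale more than the others. On the log2(TPM + 1) scale the median change of all genes moved to 0.41 for pEpiC against CDC and to -0.33 for the clone against pEpiC, and 74.5% and 32.9% of calls were then higher in the first kind, against 50.8% and 49.3% in edgeR. With library totals alone the median for pEpiC against CDC was 0.13. Across 10693 genes, the log2 difference rose by 0.42 per doubling of transcript length in pEpiC against CDC and by 0.013 in the clone against CDC, and changed by -0.41 in the clone against pEpiC. The part of this trend in the small differences of Ctnna1, Ctnnd1 and Cdh3 was not tested beyond the values given with them. The calls for Cdh1, Cdh2, Cdh11, Cdh13, Ctnnb1 and Jup against pEpiC kept direction and threshold under every alternative in which the gene was tested. Cdh1 was not tested against pEpiC where at least 10 counts were required in every library.

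**Figure D3:**
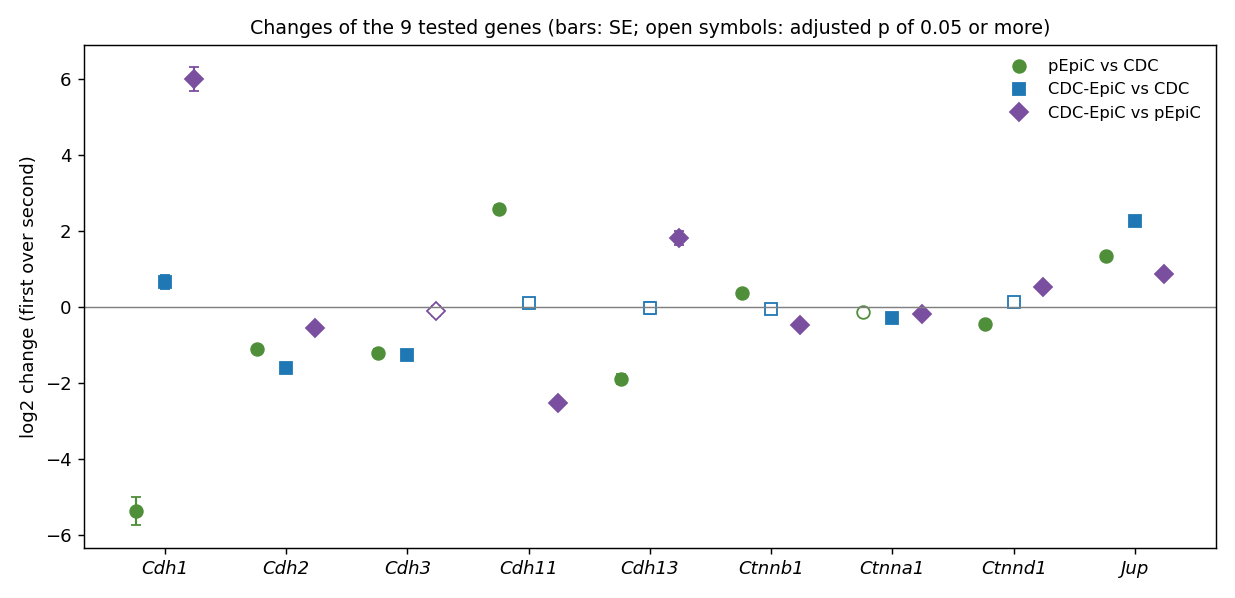
Fitted log2 change with SE (vertical axis) of the 9 tested genes in each of the 3 comparisons (circles, squares and diamonds, with open symbols where the adjusted p was 0.05 or more). Jup is above 0 in all 3 (1.35, 2.26 and 0.87), whereas Cdh2 is below 0 in all 3. The 2 values of Cdh1 that involve pEpiC rest on 1 to 3 counts per pEpiC library.

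Dsp, desmoplakin (gene 109620, chr13:38151294-38198577, plus strand), was close to absent although its partner Jup was abundant. Its counts were 10, 13 and 4 in CDC, 2, 0 and 4 in CDC-EpiC and 10, 9 and 9 in pEpiC, at most 0.589 CPM. Without the filter on low counts its change was -2.13 (log2) in the clone against CDC (adjusted p = 0.0223), -2.11 against pEpiC (adjusted p = 0.0163) and -0.064 in pEpiC against CDC (adjusted p = 0.920, edgeR). The higher CDC counts, 10 and 13, were in libraries 1 and 2, the pair with albumin and Myh6 counts. Without that pair the change in pEpiC against CDC was 1.09, and Dsp was not tested in the clone against CDC. The part of heart and liver transcripts in the Dsp level of CDC was not tested. CDC library 3 and clone library 3 both had 4 counts, so these kinds met in counts, while every pEpiC library was above the clone.

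Promoter windows of the pair of plaque partners are shown because one gene was abundant and the other nearly silent in the same cells. RefSeq (GRCm38.p6) gave windows for 4 of the 10 members, Jup, Dsp, Ctnnb1 and Ctnnd1. The 250 bases before and 10 after the start are printed 5′ to 3′ on the gene's strand, Jup at chr11:100397781-100398040 (minus) and Dsp at chr13:38151044-38151303 (plus), with any CAGGTG on either strand in capitals. This hexamer is the E-box that repressors of the Snail and ZEB families are known to bind.
Jup: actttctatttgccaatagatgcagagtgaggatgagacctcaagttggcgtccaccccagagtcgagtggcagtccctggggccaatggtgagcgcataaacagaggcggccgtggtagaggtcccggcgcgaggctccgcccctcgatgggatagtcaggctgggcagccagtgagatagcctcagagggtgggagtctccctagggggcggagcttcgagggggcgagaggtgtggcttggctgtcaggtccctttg
Dsp: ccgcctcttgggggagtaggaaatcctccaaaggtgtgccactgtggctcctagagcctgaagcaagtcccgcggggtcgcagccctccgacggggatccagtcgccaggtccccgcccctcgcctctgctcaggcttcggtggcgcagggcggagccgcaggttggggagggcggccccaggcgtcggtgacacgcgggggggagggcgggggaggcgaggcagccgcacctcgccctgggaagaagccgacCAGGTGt
The hexamer was searched on both strands over the full 300 bases, which run to 50 bases after the start. It occurs once in the Dsp window, 3 bases after the first transcribed base, and in no window of Jup, Ctnnb1 or Ctnnd1. Of all 32851 windows in the table, 20.2% hold it. The Jup window holds 14 CG dinucleotides and the Dsp window 27, against a median of 7 over all windows. A match or its absence in these letters is a description and says nothing of binding.

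The rest of the desmosome list was read in the same way (14 of 17 genes in the table). Of the desmogleins and desmocollins, which form the adhesive core, Dsg2 had at most 9 counts and Dsc2 at most 12 in any library, and Dsg1b, Dsg3, Dsc1 and Dsc3 at most 4. Plakophilins Pkp1 and Pkp3 had at most 12 and 22. Pkp2, the plakophilin of heart muscle and simple epithelia, was present at 4.0 CPM in CDC, 6.83 in CDC-EpiC and 5.45 in pEpiC (means), and the clone exceeded CDC by 0.76 ± 0.137 (log2, SE, adjusted p = 0.00016, edgeR). Ppl, periplakin, a linker to intermediate filaments and a relative of desmoplakin, was at 49.9 CPM in CDC, 117 in the clone and 6.22 in pEpiC. The clone exceeded CDC by 1.22 ± 0.0762 (adjusted p = 1.52e-09) and pEpiC by 4.22 ± 0.0988 (adjusted p = 2.46e-10, edgeR). Perp, a tetraspan protein of desmosomes, went the other way, with 86, 82 and 72 counts in CDC, 1, 3 and 5 in the clone and 28, 32 and 47 in pEpiC. Pkp3 passed the filter on low counts through pEpiC alone, and Perp, where the clone was compared, through the other kind alone. Their directions there were fixed in advance. Of this list, 4 of 6 tested genes were higher and 2 lower in pEpiC than in CDC, with a median of 0.85 beside 0.020 over all genes. In the clone against CDC, 3 of 5 were higher and 1 lower, with a median of 0.76 beside 0.0027, and against pEpiC 3 of 6 were higher and 3 lower, with a median of -0.45 beside -0.018. The shares over all genes, 39.8% higher and 38.5% lower, 34.2% and 34.6%, and 40.3% and 41.5% in the same order, and these medians over all genes are also the background of the lists that follow.

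**Figure D4:**
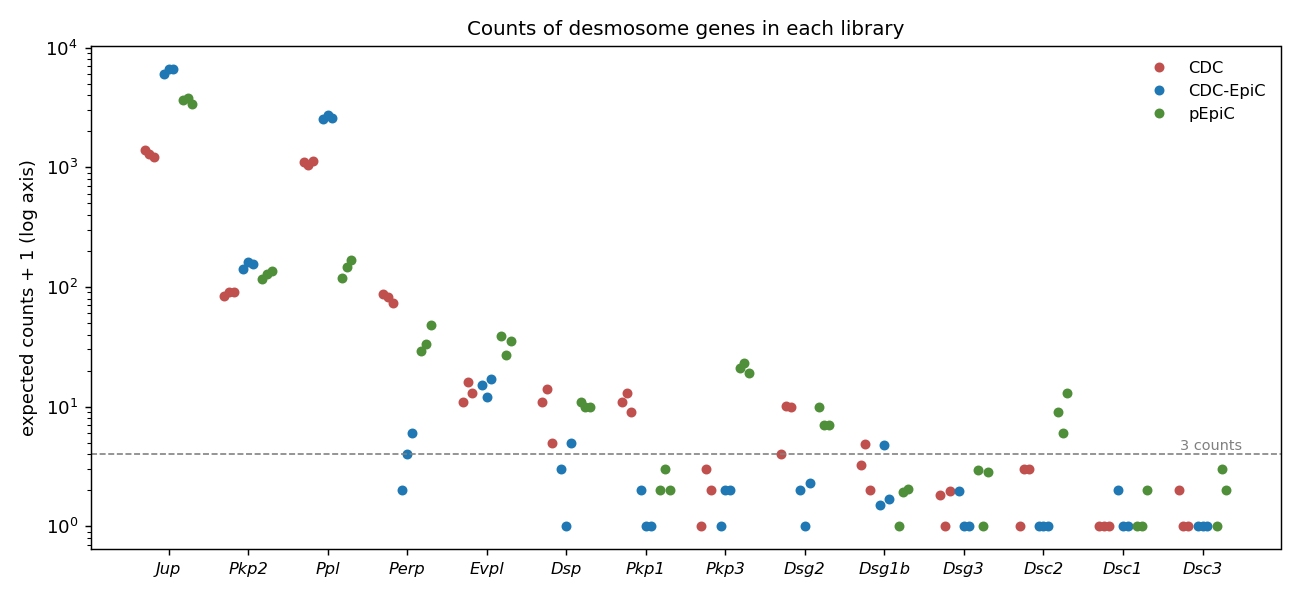
Expected counts plus 1 (logarithmic vertical axis) of 14 desmosome genes in each library (points, coloured by kind). The dashed line marks 3 counts. Jup, Pkp2 and Ppl lie well above it in all 9 libraries, whereas Dsp does not exceed 13 counts.

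Among the other classical cadherins, none approached Cdh2 or Cdh11. Of the type I list, Cdh4 had at most 5 counts and Cdh15 at most 2 in any library. The 3 tested type I genes were the members Cdh1, Cdh2 and Cdh3, so their counts restate the values above. The median was that of Cdh3 in each comparison. All 3 were lower in pEpiC than in CDC, with a median of -1.20. In the clone 1 of 3 was higher and 2 lower than CDC (median -1.26), and 1 was higher and 1 lower than pEpiC (median -0.10). Of the 13 type II genes, Cdh5, the cadherin of endothelium, had 12, 9 and 0 counts in CDC, 0 in the clone and 5, 3 and 22 in pEpiC. Cdh10 and Cdh19, picked out after their values were seen, had 32 to 42 and 26 to 53 counts in pEpiC and at most 1 elsewhere. In pEpiC against CDC, 3 of 5 tested type II genes were higher (the member Cdh11, Cdh10 and Cdh19) and 1 lower. The median, 2.60, was that of Cdh11. In the clone against CDC 0 of 3 passed in edgeR or DESeq2, 1 of them having an unadjusted p under 0.05 in edgeR (median 0.44). In the clone against pEpiC 1 of 5 was higher and the same 3 lower, and the median, -2.53, was again that of Cdh11. Cdh10 and Cdh19 passed the filter on low counts through pEpiC alone. Their direction in these counts was therefore fixed in advance.

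Relatives of the member catenins were read beside them. Arvcf, a relative of p120-catenin that also binds cadherin tails, had a mean of 41.2 CPM in CDC, 156 in CDC-EpiC and 28.9 in pEpiC. The clone exceeded CDC by 1.92 ± 0.0883 (log2, SE, adjusted p = 4.6e-11) and pEpiC by 2.42 ± 0.0787 (adjusted p = 2.09e-09, edgeR). Ctnnal1, alpha-catulin, a relative of alpha-catenin, stood at 22.8, 122 and 28.5 CPM in the same order. It exceeded CDC by 2.41 ± 0.10 (adjusted p = 1.38e-11) and pEpiC by 2.08 ± 0.0863 (adjusted p = 1.05e-08) in the clone. Pkp4, or p0071, another relative of p120-catenin, was lower in pEpiC than in CDC by -1.40 ± 0.0648 (adjusted p = 3.15e-08, edgeR). The alpha-catenins of nerve and of heart and testis, Ctnna2 and Ctnna3, had at most 29 and 5 counts. Ctnna2 passed the filter on low counts through pEpiC alone, and Ctnnd2, where the clone was compared, through the other kind alone. Their directions there were fixed in advance. Over the catenin list, 5 of 9 tested genes were higher and 3 lower in pEpiC than in CDC (median 0.29), 3 of 8 higher and 3 lower in the clone than in CDC (median 0.039), and 5 of 9 higher and 4 lower in the clone than in pEpiC (median 0.54).

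The actin linkers and nectins around the cadherin complex were measured as well. Shroom3, an actin-binding protein of apical junctions, was at 40.3 CPM in CDC, 224 in CDC-EpiC and 39.5 in pEpiC, and the clone exceeded CDC by 2.46 ± 0.0781 (log2, SE, adjusted p = 6.63e-13) and pEpiC by 2.49 ± 0.0516 (adjusted p = 1.16e-10). Plekha7, which binds p120-catenin at the zonula adherens, was 2.36-fold higher in the clone than in CDC (adjusted p = 5.04e-09) and 4.25-fold higher than in pEpiC (adjusted p = 9.88e-09). Ajuba, a LIM protein that binds alpha-catenin, was 2.44-fold higher in the clone than in CDC (adjusted p = 2.09e-08), and Zyx, zyxin, was 3.56-fold higher in the clone than in pEpiC (adjusted p = 8.7e-09). The nectins, calcium-independent adhesion molecules, did not go one way. Nectin2 exceeded CDC by 0.65 ± 0.0841 (adjusted p = 6.38e-06) and pEpiC by 0.99 ± 0.0666 (adjusted p = 3.43e-07) in the clone. Nectin1 changed in the clone by -1.80 ± 0.0902 from CDC (adjusted p = 1.24e-10) and Nectin3 by -1.77 ± 0.0910 (adjusted p = 1.66e-10), and against pEpiC by -1.41 ± 0.106 and -2.44 ± 0.0744 (adjusted p = 7.62e-07 and 1.38e-09, all in edgeR). Of 14 tested genes of this list, 2 were higher and 10 lower in pEpiC than in CDC (median -0.41, beside 39.8% higher, 38.5% lower and a median of 0.020 over all genes), 6 higher and 6 lower in the clone than in CDC (median -0.065), and 8 higher and 4 lower in the clone than in pEpiC (median 0.40).

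Cdh1 had the widest range of mean log2(CPM + 1) among the members, 2.67, followed by Cdh11 (2.61) and Jup (2.25). Over the 9 libraries and 9472 genes with a mean of at least 10 CPM, the genes whose log2(CPM + 1) correlated most with that of Cdh1 included Cd99l2 (Pearson's r = 0.997), Lbr (0.996), Sf3b2 (0.995) and Pde4b (0.992). These points share libraries and fall into 3 kinds, and 20 genes had r above 0.99. These 4 had their lowest mean in pEpiC and their highest in CDC-EpiC, from 92.6, 99.9 and 70.9 CPM for Cd99l2 to 44.0, 54.9 and 11.8 CPM for Pde4b in CDC, CDC-EpiC and pEpiC.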

How the data were processed

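Poly(A) RNA was selected on oligo(dT) beads, reverse transcribed from random hexamers and sequenced from both ends (100 bases each) on the BGISEQ-500 platform. GEO lists 1 sample per kind, and the 3 library columns of each were taken as replicates since the labels' extraction text mentions separate samples for each kind. The authors deposited expected counts per gene (estimated reads, not whole for 30.3% of values), TPM and FPKM, which scale those counts to transcript length and to depth. The 9 columns of means they deposited were not used. The submitters' processing notes name HISAT2 2.0.4, Bowtie2 2.2.5, RSEM 1.2.12, DESeq2 1.4.5 and the build mm10, with no roles. The annotation and the use of strand are not given in the sources used here, so overlapping and antisense genes cannot be told apart. Total counts were 22008833 to 22756045 per library.

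Expected counts were rounded and fitted in edgeR 4.0.16 (R 4.3.3) for each pair of kinds, after filterByExpr (minimum count 10, minimum total 15), with TMM factors and the quasi-likelihood F-test. A gene can pass this filter through a single kind, as Cdh1 did against pEpiC, and its direction is then fixed in advance. Benjamini-Hochberg adjustment covered all genes tested, at a threshold of 0.05. Errors of log2 changes are SE and those of levels SD (n = 3). Intervals and floors (3 counts per library) cover counting error only and leave out the spread between libraries. PCR copies of a molecule are counted apart, so even the counting error may be understated. Ratios between genes used the deposited TPM and exact two-sided permutation tests. DESeq2 1.42.0, limma 3.58.1 on log2(TPM + 1) and log2(FPKM + 1), other scalings and filters, a transcript length offset, a replicate block and left-out libraries were alternatives. The scripts were tested on simulated data. Positions are from RefSeq GRCm38.p6 and exon overlaps from GENCODE on GRCm38. Python 3.11.15 was used for ratios and figures.

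The members, gene lists and alternatives were chosen with earlier results of these data known. Of each list, up to 3 genes that rose and 3 that fell most were named per comparison, among those called with at least 2-fold change and 10 CPM. Not all are printed, and Pkp2, Perp, Nectin2, single marker genes and genes given by low counts were added after their values were seen. Genes most like the member with the widest range were the 5 with the highest Pearson's r, of which 1 is not reported here.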

Additional observations from a re-analysis of the deposited data

How the results depend on the processing

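The counts of members called were 7 to 9 (pEpiC vs CDC), 4 to 6 (CDC-EpiC vs CDC) and 7 to 9 (CDC-EpiC vs pEpiC) over all alternatives, and those of other list genes 36 to 49, 34 to 40 and 35 to 52. These totals hide direction. For pEpiC vs CDC, 26 list genes were higher and 18 lower in the main fit, 33 and 9 on the TPM scale, and 22 and 23 with the length offset. The higher and lower counts of the lists in that comparison thus depend on the unit. Of 448 member values, 424 kept direction and side of the threshold, 8 came to pass it, 2 ceased to and 14 changed sign, and all 644 values of named list genes kept both. Sign changes, as log2 values, were as follows, and their cause was not tested. On the TPM scale they were Ctnna1 0.36 and Ctnnd1 0.045 (pEpiC vs CDC), and Cdh13 0.047 and Ctnnb1 0.034 (CDC-EpiC vs CDC). In the latter comparison, library totals alone gave Cdh13 0.041 and Ctnnb1 0.012, FPKM gave 0.027 and 0.014, leaving out single libraries gave -0.26 to 0.16 and -0.092 to 0.033, and leaving out CDC libraries 1 and 2 gave Cdh11 -0.067. The length offset gave Cdh3 0.093 (CDC-EpiC vs pEpiC). With a pseudocount of 0.1 TPM, the pEpiC ratio of Cdh1 to Cdh2 was 0.000888 and the Cdh1 share 0.0485%. Same-numbered libraries of different kinds had correlations of -0.10 to 0.16, so numbers were not taken as pairs, and with the replicate block 8, 5 and 8 members and 43, 36 and 45 list genes passed. Cdh1 in pEpiC and Dsp everywhere were limited by depth.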

Other observations

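Atypical cadherins and the enzymes that act on junctions were measured as well. Fat1, a giant cadherin that acts in cell polarity and Hippo signalling, had a mean of 930 CPM in CDC, 228 in CDC-EpiC and 936 in pEpiC, and the clone changed from CDC by -2.04 ± 0.110 (log2, SE, adjusted p = 2.94e-10, edgeR). Its relative Fat4 changed by -1.73 ± 0.115 (adjusted p = 3.19e-09, edgeR). The protocadherin Pcdh19 had 34, 17 and 35 counts in CDC, 0 in all clone libraries and 638, 746 and 744 in pEpiC, so the clone was at least 229-fold lower than pEpiC against a floor of 3 counts per library. Pcdh18 changed in the clone by -4.09 ± 0.164 from CDC (adjusted p = 9.46e-12) and by -4.93 ± 0.144 from pEpiC (adjusted p = 1.06e-09, edgeR). Pcdh1 was 16.5-fold and Pcdh9 3.72-fold higher in pEpiC than in CDC (adjusted p = 5.99e-09 and 5.05e-07, edgeR). Of the tested atypical cadherins, 10 of 13 were higher and 2 lower in pEpiC than in CDC (median 1.03), 8 of 10 passed in the clone, all lower than in CDC (median -1.33), and 11 of 13 were lower and 2 higher in the clone than in pEpiC (median -3.86). With the 4 genes at or under the floor in the clone set to their bounds, the last median was -3.82. Fat3, Pcdh10 and Pcdh17 passed the filter on low counts through pEpiC alone. Cdh26 against pEpiC, and Pcdh19 in both comparisons of the clone, passed it through the other kind alone. The directions of these genes in the counts above were therefore fixed in advance. Over all genes the shares were 39.8% higher and 38.5% lower (median 0.020), 34.2% and 34.6% (0.0027), and 40.3% and 41.5% (-0.018) in the same order.

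Among the 10 listed genes of enzymes that act on junctions, Ptprj, a receptor tyrosine phosphatase that acts on p120-catenin, had means of 11.5 CPM in CDC, 66.9 in CDC-EpiC and 25.3 in pEpiC. The clone exceeded CDC by 2.53 ± 0.111 (log2, SE, adjusted p = 2.51e-11) and pEpiC by 1.39 ± 0.0800 (adjusted p = 1.07e-07, edgeR). The phosphatase Ptprm, which binds cadherins, changed by -1.94 ± 0.0963 from CDC to the clone (adjusted p = 1.12e-10), and the kinase Fyn by -1.95 ± 0.0913 (adjusted p = 5.71e-11, edgeR). The protease Adam10, which cleaves N-cadherin and E-cadherin, had means of 194, 165 and 177 CPM in CDC, CDC-EpiC and pEpiC. Of this list, 6 were higher and 2 lower in pEpiC than in CDC (median 0.39), 5 higher and 4 lower in the clone than in CDC (median 0.16), and 3 higher and 5 lower in the clone than in pEpiC (median -0.15), beside the same shares over all genes.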
